A study of Homo sapiens with 4 samples.

Results

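The genes described here are 45 members of the machinery of cyclin-dependent kinases (CDKs) in human cells: 20 cyclins, 19 CDKs, the 3 CDC25 phosphatases, the small CDK-binding proteins CKS1B and CKS2, and the assembly factor MNAT1. They were chosen by symbol, each matched to 1 gene identifier of the 61852 genes in the deposited tables, and all 45 were expressed highly enough to be tested. By their known functions 18 were placed in a cell cycle class, 16 in a transcriptional class and 11 in neither. Earlier results of these data were known when the classes were drawn up. RNA came from H1299, a human non-small-cell lung carcinoma cell line whose genotype is given as p53-/-. The design has 2 groups of 2 libraries, H1299 expressing wild-type p53 (p53WT) and H1299 expressing the p53 mutant CASM34, all grown in RPMI 1640 with serum. The title of the series concerns cancer-associated synonymous mutations and the p53 DNA damage response. No treatment is stated, how p53 was introduced and whether a line is 1 clone are not stated either, and cells without p53 were not analysed here, so every difference is CASM34 relative to p53WT. The labels do not say that the 2 libraries of a group are separate cultures, so p-values reflect only how far these libraries spread, which may be technical.

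Cyclins are the regulatory subunits that switch on CDKs. In the cell cycle, D-type cyclins act with CDK4 and CDK6 in G1, E-type cyclins with CDK2 at the start of S phase, and cyclins A and B with CDK2 and CDK1 from S phase to mitosis. CDC25 phosphatases remove the inhibitory phosphates that hold these kinases in check. A separate branch of the family works on RNA polymerase II: CDK7 with cyclin H and MNAT1 in the initiation factor TFIIH, CDK8 or CDK19 with cyclin C in Mediator, CDK9 with cyclin T in the elongation factor P-TEFb, CDK12 and CDK13 with cyclin K, and CDK11 with cyclin L in pre-mRNA splicing. Activated p53 raises the CDK inhibitor p21, and p21 lowers many mitotic genes through the repressive DREAM complex, which binds a promoter element called the CHR.

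The estimated counts totalled between 18086983 and 26906095 per library. Counts were compared with the quasi-likelihood test of edgeR, and a gene is said to have risen, fallen or passed where p, adjusted by Benjamini-Hochberg across the whole table, was under 0.05. Of 15965 genes tested, 312 changed. The epithelial keratin genes KRT8 and KRT18 lay at 501 CPM (the count scaled to a common library size with TMM factors) or more in every library. The keratin gene KRT19 lay only between 0.155 and 0.493 CPM, and the other epithelial markers, EPCAM and CDH1, were at most 0.310 CPM. None of the 5 lung lineage markers exceeded 0.658 CPM, with SFTPB and SCGB1A1 at 0 counts in all 4 libraries. Among 6 leukocyte markers PTPRC and CD3E were at 0 counts in all 4 libraries, and CD68, a lysosomal protein gene, lay between 89.9 and 102 CPM. The highest of 7 fibroblast and endothelial markers, COL1A1, reached 2.79 CPM. Summed levels of the 4 marker lists ranged from 1513 to 1544 CPM in p53WT and 1562 to 1592 in CASM34 for epithelial genes, 0.426 to 0.460 and 0.749 to 1.59 for lung genes, 96.4 to 97.4 and 90.0 to 103 for leukocyte genes, and 3.36 to 3.68 and 3.67 to 4.44 for the last list. Counts were high enough for the test in 3 of 5 epithelial, 0 of 5 lung lineage, 1 of 6 leukocyte and 3 of 7 fibroblast and endothelial markers. None of those tested passed, and the part of the markers in the results below was not tested. A dependence on GC content followed the groups, and values corrected for it are given beside many of the results. The slope of the log2 level on the GC content of the transcripts, per 10 percentage points of GC, came to -0.0574 and -0.0567 for the p53WT libraries and to 0.0732 and 0.0409 for the CASM34 libraries.

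Levels between genes were compared in TPM, the deposited unit that corrects for transcript length. The 5 highest levels belonged to the cell cycle class. CKS1B, which binds CDKs and serves the ubiquitin ligase that destroys p27, had the highest mean over the 4 libraries at 442 TPM, followed by the mitotic cyclin CCNB1 at 354, CKS2 at 328, the G1 kinase CDK4 at 280 and the G1 cyclin CCND1 at 219. Between CCNB1 and CKS2 the libraries of the p53WT group were apart, with 377 and 377 TPM against 320 and 332, whereas in CASM34 they overlapped, with 336 and 328 against 311 and 346. CDK4 lay at 273 TPM or more in every library and CDK6, the other partner of D-type cyclins, at 33.8 or less. CDK1 and CDK2 had similar means of 97.7 and 91.8 TPM. Of the D-type cyclins CCND3 had 100.4 TPM, and CCND2 was the lowest of all 45 genes. CCND2 had 0.552 and 0.464 CPM in p53WT and 0.524 and 0.658 CPM in CASM34. Its counts were fractional in all 4 libraries, which marks reads that RSEM shares between gene models. Its 1.20 TPM in CASM34 replicate 1, against 0.0900 to 0.130 in the other libraries, went with an effective length of 517 bases there and of 5830 to 5835 elsewhere. The transcriptional class spanned a narrower range, from 8.35 TPM for CCNT2 to 85.4 TPM for CDK7, with a median of 33.0, where the cell cycle class had a median of 87.3.

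**Figure D1:**
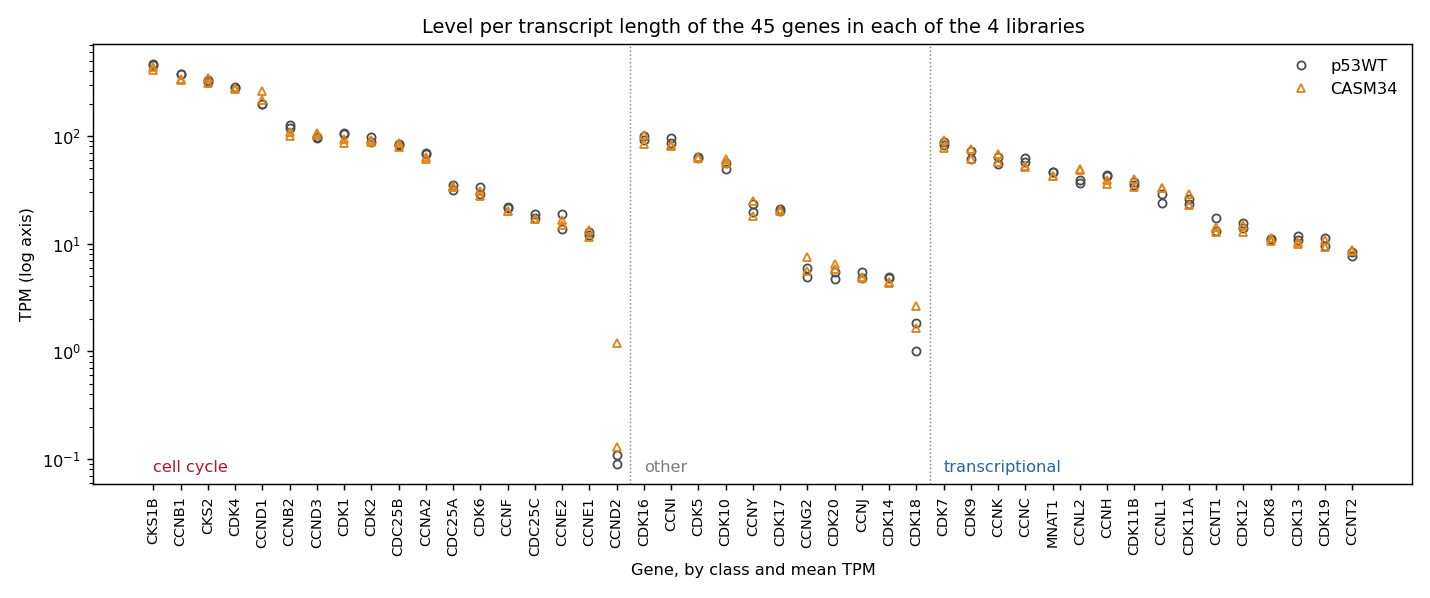
TPM on a log axis for the 45 genes in each of the 4 libraries, ordered by class and mean level; circles are p53WT and triangles CASM34. Most genes have overlapping or adjacent symbols, and CCND2 in CASM34 replicate 1 stands apart at 1.20 TPM.

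Among the 45 genes, CDK1, the kinase that drives entry into mitosis, fell in CASM34, and CCNL2, a cyclin of the splicing-linked kinase CDK11, rose. The other 43 did not pass. Across all genes tested 1.95% changed, with 1.61% rising and 0.345% falling, so 2 of 45 is close to the background of the whole table. In the cell cycle class 14 of 18 log2 fold changes (CASM34 over p53WT) lay below 0, with a median of -0.09, in the transcriptional class 8 of 16 with a median of 0.0035 (below 0 when any 1 library was left out), and in the remaining class 6 of 11 with a median of -0.04. Over all genes 50.2% lay below 0 and the median was -0.00055. Whether the classes differ was not tested. At an unadjusted p under 0.05, 14 of the 45 passed, 10 of them lower, where 17.1% of all genes passed and 6.81% passed as lower. All CASM34 libraries were below all p53WT libraries for 18 of the 45 genes and above them for 7, against 23.4% and 24.5% of all genes. By class those counts were 9 lower and 1 higher of 18 cell cycle genes, 6 and 4 of 16 transcriptional genes, and 3 and 2 of the 11 others.

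**Figure D2:**
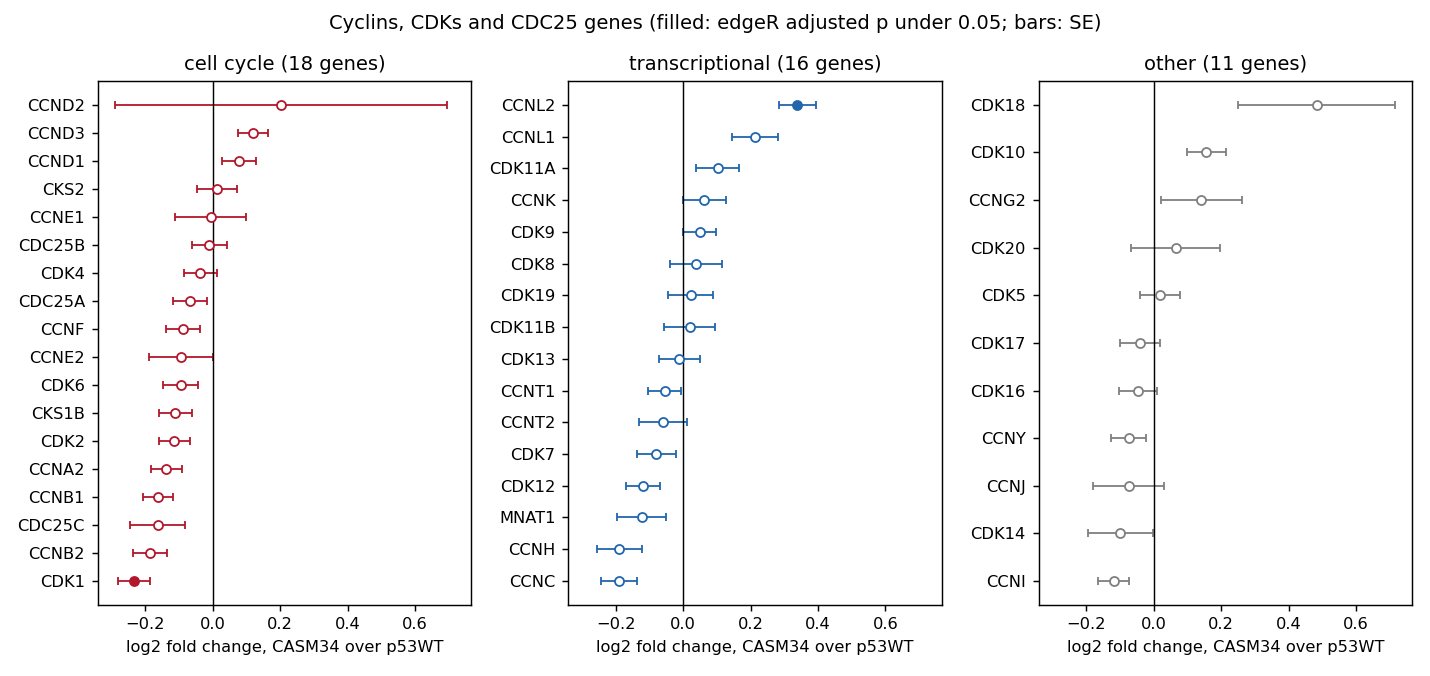
Log2 fold change, CASM34 over p53WT, with its standard error (bars) for the 18 cell cycle genes, 16 transcriptional genes and 11 others. Filled points, CDK1 and CCNL2, passed at an edgeR adjusted p under 0.05; most cell cycle genes sit to the left of 0, while the transcriptional genes spread to both sides.

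CDK1 (ENSG00000170312.17, GRCh38 chromosome 10, 60778331 to 60794852, plus strand, GENCODE 29) had 137 and 141 CPM in p53WT and 114 and 122 CPM in CASM34. Both CASM34 libraries were below both p53WT libraries. The means were 139 ± 2.56 and 118 ± 5.22 CPM (SD, n = 2 each). The log2 fold change was -0.23 (standard error 0.05, edgeR adjusted p = 0.0286). In bulk RNA, fewer cells in G2 and mitosis and less CDK1 mRNA per cell cannot be told apart. CDK1 had the lowest GC content of the 45 genes, 35.9%. When the trend of each library on GC content and transcript length was taken out through an offset, its log2 fold change was -0.12 (edgeR adjusted p = 0.230). Nor did it pass when p53WT replicate 1, p53WT replicate 2 or CASM34 replicate 1 was left out, at -0.26, -0.21 and -0.19 (edgeR adjusted p = 0.0934, 0.139 and 0.0920), or with effective length as an offset, at -0.23 (edgeR adjusted p = 0.293), or in limma on log2(TPM + 1), at -0.23 (adjusted p = 0.338).

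The cyclins that work with CDK1 and CDK2 in S phase and mitosis lay slightly lower in CASM34, each with groups that did not overlap, and none passed. CCNB1 (ENSG00000134057.15, chromosome 5, 69167010 to 69178245, plus strand), the main mitotic cyclin, had 373 and 380 CPM in p53WT and 337 and 335 CPM in CASM34, a log2 fold change of -0.16 (standard error 0.04, edgeR adjusted p = 0.0787). It passed in DESeq2 (adjusted p = 0.0201) and without a filter on low counts (edgeR adjusted p = 0.0426). CCNB2, the second B-type cyclin (chromosome 15, 59105078 to 59125045, plus strand), had 119 and 117 CPM in p53WT and 99.7 and 108 CPM in CASM34, a log2 fold change of -0.19 (standard error 0.05, edgeR adjusted p = 0.0789). It passed without a filter on low counts (edgeR adjusted p = 0.0177) and without CASM34 replicate 2, at -0.24 (edgeR adjusted p = 0.00592), whereas leaving out CASM34 replicate 1 gave -0.13 (edgeR adjusted p = 0.344). CCNA2, the cyclin of S phase and G2, had 142 and 142 CPM in p53WT and 126 and 132 CPM in CASM34. Its counts were fractional in each library. The CCNA2 log2 fold change was -0.14 (standard error 0.05, edgeR adjusted p = 0.147). CCNF, whose product is an F-box protein rather than a CDK activator, had a log2 fold change of -0.09 (standard error 0.05). Corrected for GC and length, these 4 cyclins lay at -0.11, -0.14, -0.09 and -0.20, and none passed.

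**Figure D3:**
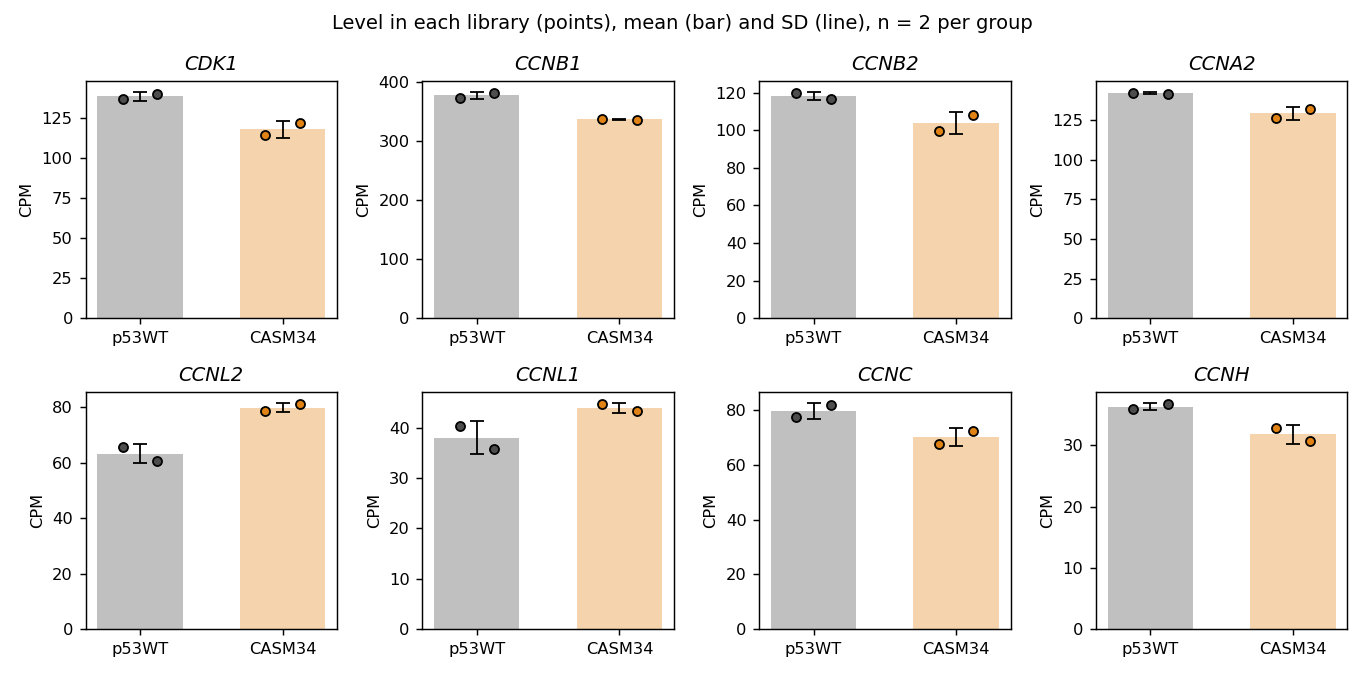
CPM from 0 in each library (points), with the mean (bar) and SD (line, n = 2 per group), for 4 genes of the cell cycle class (CDK1, CCNB1, CCNB2, CCNA2) and 4 of the transcriptional class (CCNL2, CCNL1, CCNC, CCNH). The CASM34 points lie below the p53WT points for 6 of these genes and above them for CCNL2 and CCNL1; of the 8, only CDK1 and CCNL2 passed.

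CDK1, CCNB1 and CCNB2 were picked for display as mitotic genes that lay lower in CASM34 and textbook targets of repression through the CHR. Only CDK1 passed, and none passed with an offset for GC and length. Whether the CHR has a part in their levels was not tested. Their promoters are given here. Each is the 250 bases before a RefSeq gene start on GRCh38.p14, 5′ to 3′ on the gene's own strand, at chr10:60778081-60778330 (plus strand), chr5:69166900-69167149 (plus) and chr15:59104896-59105145 (plus). Capitals mark exact matches, on either strand, to TTTGAA (the CHR) or CCAAT (the CCAAT box). No E2F site as defined below lies in the stretches shown.
CDK1: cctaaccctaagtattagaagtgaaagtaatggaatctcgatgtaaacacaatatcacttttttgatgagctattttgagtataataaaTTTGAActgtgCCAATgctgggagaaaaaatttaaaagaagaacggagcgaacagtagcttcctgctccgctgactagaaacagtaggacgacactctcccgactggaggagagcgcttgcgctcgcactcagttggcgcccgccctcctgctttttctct
CCNB1: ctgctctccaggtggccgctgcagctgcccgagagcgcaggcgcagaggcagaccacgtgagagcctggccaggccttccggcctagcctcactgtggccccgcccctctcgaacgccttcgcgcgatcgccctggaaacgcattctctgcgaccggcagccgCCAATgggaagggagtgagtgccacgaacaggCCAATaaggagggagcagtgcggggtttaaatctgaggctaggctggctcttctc
CCNB2: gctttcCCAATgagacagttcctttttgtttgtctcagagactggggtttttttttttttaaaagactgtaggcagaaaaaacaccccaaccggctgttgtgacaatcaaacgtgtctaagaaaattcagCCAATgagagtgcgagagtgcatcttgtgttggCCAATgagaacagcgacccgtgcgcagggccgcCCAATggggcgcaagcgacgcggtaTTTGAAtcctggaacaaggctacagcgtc
In CCNB2 the CHR match begins 29 bases before the start and follows 4 CCAAT boxes, beginning at -244, -120, -87 and -54. CCNB1 has 2 CCAAT boxes, at -87 and -55, and no exact CHR match in its window. The CDK1 stretch shown has a CHR match at -161 and a CCAAT box at -150. A second RefSeq start of CDK1, further downstream, has CHR matches at -69, -13 and 10 and CCAAT boxes at -78 and -46. It also has an E2F site, TTTCGCGC, at -128. Counted from the start of the stretch shown, an E2F site lies at 20, past the end of that stretch.

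Over the family, promoter windows (from 250 bases before to 50 after a start) were found for 41 of the 45 genes, in 62 windows; CCND1, CCND2, CCNE2 and CDK2 had none. A gene was counted once if any of its windows held the motif on either strand, so a gene with more windows had more chances. The 14 cell cycle genes had 24 windows, the 16 transcriptional genes 22 and the 11 others 16. The background of 27305 genes had 35116, and it holds all genes with a window, not only those tested. TTTGAA was present in 6 of 14 cell cycle genes, 2 of 16 transcriptional genes and 1 of 11 others, against 18.2% of 27305 genes. CCAAT was present in 11 of 14, 7 of 16 and 3 of 11, against 39.7%. An E2F site, taken as TTTCCCGC, TTTGGCGC, TTTCGCGC or TTTGCCGC, was present in 2 of 14, 2 of 16 and 1 of 11, against 3.99%. No motif contains another. The 6 cell cycle genes with a CHR match were CCNB2, CCNF, CDK1, CDC25C, CKS1B and CKS2. All but CKS2 had a log2 fold change below 0, CKS2 lay at 0.01, and only CDK1 passed. Cell cycle genes with a window but no exact CHR match lay much the same way. CCNA2, CCNB1, CCNE1, CDK4, CDK6, CDC25A and CDC25B were below 0 and CCND3 above. In the whole class 14 of 18 were below 0. Only exact TTTGAA was counted, so the tally cannot tell genes with a CHR from genes without one. Whether these sets of genes differ was not tested. Corrected for GC and length, CKS1B lay at -0.03 and CKS2 at 0.13. A match describes the letters of the window and is not a measured binding site.

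The D-type cyclins of G1 lay above 0, and none passed. CCND1, the cyclin that couples growth signals to CDK4 and CDK6, had 618 and 599 CPM in p53WT and 670 and 615 CPM in CASM34, so the groups overlapped. Its log2 fold change was 0.08 (standard error 0.05, edgeR adjusted p = 0.473), and on the log2(TPM + 1) scale it was 0.24, with effective lengths of 3723 and 3530 bases in p53WT and 3037 and 3389 in CASM34. CCND3 had a log2 fold change of 0.12 (standard error 0.04, edgeR adjusted p = 0.189), CCND2 of 0.20 (standard error 0.49). Corrected for GC and length, CCND1 and CCND3 lay at -0.0087 and -0.0097, so their direction depended on that offset. CDK4 had 243 and 263 CPM in p53WT and 247 and 246 CPM in CASM34, with overlapping groups and a log2 fold change of -0.04 (standard error 0.05). CDK6 had 302 and 278 CPM in p53WT and 264 and 278 CPM in CASM34, with overlapping groups and a log2 fold change of -0.10 (standard error 0.05). Neither kinase passed (edgeR adjusted p = 0.748 and 0.376), and after the GC correction CDK4 lay at -0.10 and CDK6 at -0.08.

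At the start of S phase the E-type cyclins, which activate CDK2 for origin firing, were low and overlapped between groups. CCNE1 had 14.1 and 15.1 CPM in p53WT and 15.4 and 13.6 CPM in CASM34, a log2 fold change of -0.0068 (standard error 0.10). CCNE2 had 23.3 and 22.1 CPM in p53WT and 19.5 and 23.3 CPM in CASM34, with counts shared between gene models in each library and a log2 fold change of -0.09 (standard error 0.09). The sign of both changed when single libraries were left out, and after the GC correction CCNE2 lay at -0.01. CDK2, the kinase of S phase, had 116 and 119 CPM in p53WT and 109 and 108 CPM in CASM34, with groups apart and a log2 fold change of -0.11 (standard error 0.05, edgeR adjusted p = 0.217).

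None of the CDC25 phosphatases passed. CDC25A, which acts at the G1 to S transition and into mitosis, had 67.8 and 67.8 CPM in p53WT and 65.3 and 63.9 CPM in CASM34, a log2 fold change of -0.07 (standard error 0.05). CDC25B, which starts the activation of CDK1, had 186 and 185 CPM in p53WT and 193 and 175 CPM in CASM34, with overlapping groups and a log2 fold change of -0.01 (standard error 0.05). CDC25C, the mitotic member, had 23.2 and 22.8 CPM in p53WT and 20.2 and 20.9 CPM in CASM34, groups apart, with the lowest log2 fold change of the 3 at -0.16 (standard error 0.08, edgeR adjusted p = 0.328). Per length CDC25B was the most abundant of the 3, at 82.9 TPM, against 33.5 for CDC25A and 17.4 for CDC25C. After the GC correction CDC25A, CDC25B and CDC25C lay at -0.10, -0.13 and -0.13, so the value of CDC25B depended on it. Neither CKS gene passed. CKS1B had 182 and 193 CPM in p53WT and 170 and 179 CPM in CASM34, a log2 fold change of -0.11 (standard error 0.05, edgeR adjusted p = 0.268). CKS2 had 83.2 and 89.2 CPM in p53WT and 83.0 and 91.7 CPM in CASM34, a log2 fold change of 0.01 (standard error 0.06). Both values depended on the GC correction, which put CKS1B at -0.03 (edgeR adjusted p = 0.797) and CKS2 at 0.13 (edgeR adjusted p = 0.215).

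In the transcriptional class the 4 genes of the CDK11 and cyclin L group all lay above 0, CDK11B only before correction for GC and length, and CCNL2 rose. CCNL2 (ENSG00000221978.13, chromosome 1, 1385711 to 1399328, minus strand) had 65.6 and 60.8 CPM in p53WT and 78.6 and 81.0 CPM in CASM34. The groups did not overlap, and the means were 63.2 ± 3.41 and 79.8 ± 1.70 CPM (SD, n = 2 each). The log2 fold change was 0.34 (standard error 0.05, edgeR adjusted p = 0.00926). This is a 1.26-fold difference. Corrected for GC and length, it was 0.29 and CCNL2 still passed (edgeR adjusted p = 0.0346), the only one of the 45 to do so, where 0.257% of all genes passed with that offset. It did not pass without p53WT replicate 2, at 0.28 (edgeR adjusted p = 0.0580), with effective length as an offset, at 0.35 (edgeR adjusted p = 0.219), or on the log2(TPM + 1) scale in limma, at 0.35 (adjusted p = 0.317), where no gene of the table passed. Its counts were whole in all 4 libraries.

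The promoter of CCNL2 is shown as that of the gene that rose, for comparison with the mitotic promoters. It covers chr1:1399336-1399585 on the minus strand of GRCh38.p14, from RefSeq, and capitals again mark CHR and CCAAT matches.
CCNL2: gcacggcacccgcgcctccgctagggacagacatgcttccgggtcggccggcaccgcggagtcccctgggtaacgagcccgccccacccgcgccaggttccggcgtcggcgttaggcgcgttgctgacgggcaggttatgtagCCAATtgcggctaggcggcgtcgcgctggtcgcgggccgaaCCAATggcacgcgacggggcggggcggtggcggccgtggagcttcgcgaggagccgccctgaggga
It holds 2 CCAAT boxes, at -107 and -66, and no TTTGAA.

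CCNL1, the closest relative of CCNL2 in this list, had 40.3 and 35.7 CPM in p53WT and 44.6 and 43.2 CPM in CASM34. Its groups were apart, with a log2 fold change of 0.21 (standard error 0.07, edgeR adjusted p = 0.132), which was 0.27 after the GC correction (edgeR adjusted p = 0.109). The kinase genes of this group are near-identical copies on chromosome 1, and both had fractional counts in all 4 libraries, so the division of reads between them is uncertain. CDK11A had 36.3 and 36.8 CPM in p53WT and 40.4 and 37.9 CPM in CASM34, a log2 fold change of 0.10 (standard error 0.06). CDK11B had 73.0 and 78.8 CPM in p53WT and 84.0 and 69.0 CPM in CASM34, a log2 fold change of 0.02 (standard error 0.08). Neither passed (edgeR adjusted p = 0.453 and 0.930). After the GC correction CDK11A lay at 0.0078 and CDK11B at -0.08.

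None of the P-TEFb and cyclin K genes passed. CDK9, the kinase that releases paused RNA polymerase II, had 76.1 and 74.7 CPM in p53WT and 77.7 and 78.3 CPM in CASM34, a log2 fold change of 0.05 (standard error 0.05), which lay at -0.07 once corrected for GC and length. Its partners lay slightly lower without passing: CCNT1 had 71.6 and 70.9 CPM in p53WT and 69.2 and 67.9 CPM in CASM34, at -0.06 (standard error 0.05). CCNT2 had 31.0 and 29.2 CPM in p53WT and 28.8 and 28.8 CPM in CASM34, also at -0.06 (standard error 0.07). CDK12, which phosphorylates elongating polymerase and supports long DNA repair genes, had 78.0 and 76.3 CPM in p53WT and 71.8 and 70.1 CPM in CASM34, groups apart, at -0.12 (standard error 0.05, edgeR adjusted p = 0.235). Its relative CDK13 overlapped between groups, with 45.5 and 43.1 CPM in p53WT and 44.9 and 42.7 CPM in CASM34, at -0.01 (standard error 0.06). CCNK, the cyclin of both, had 108 and 103 CPM in p53WT and 119 and 102 CPM in CASM34, at 0.06 (standard error 0.06), with counts shared between gene models in each library.

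In the Mediator kinase module the cyclin lay lower while both kinases overlapped between groups. CCNC (chromosome 6, 99542380 to 99568973, minus strand) had 77.7 and 81.7 CPM in p53WT and 67.7 and 72.3 CPM in CASM34, a log2 fold change of -0.19 (standard error 0.05, edgeR adjusted p = 0.0910). It had fractional counts in all 4 libraries and a GC content of 38.3%, and the GC and length offset put it at -0.10. It passed without a filter on low counts (edgeR adjusted p = 0.0285) and without CASM34 replicate 2 (edgeR adjusted p = 0.0174), but leaving out CASM34 replicate 1 gave -0.14 (edgeR adjusted p = 0.337). CDK8 had 23.7 and 24.5 CPM in p53WT and 25.4 and 24.1 CPM in CASM34, at 0.04 (standard error 0.08). CDK19, its paralog, had 44.4 and 40.7 CPM in p53WT and 41.6 and 44.8 CPM in CASM34, at 0.02 (standard error 0.07).

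The 3 genes of the CDK-activating kinase, which phosphorylates both cell cycle CDKs and RNA polymerase II, all lay below 0 and did not pass. CCNH had 35.9 and 36.8 CPM in p53WT and 32.9 and 30.7 CPM in CASM34, groups apart, at -0.19 (standard error 0.07, edgeR adjusted p = 0.168), with counts shared between gene models in each library. MNAT1, which holds the complex together, had 28.0 and 28.4 CPM in p53WT and 25.7 and 26.1 CPM in CASM34, groups apart, at -0.12 (standard error 0.07, edgeR adjusted p = 0.420). CDK7 had 70.9 and 71.5 CPM in p53WT and 64.0 and 71.2 CPM in CASM34, at -0.08 (standard error 0.06), with overlapping groups, and at -0.0014 without CASM34 replicate 1. Corrected for GC and length, CCNH, MNAT1 and CDK7 lay at -0.10, -0.02 and -0.01, and their GC contents were 39.8%, 38.8% and 42.6%.

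Of the 11 genes in neither class none passed in edgeR, and 2 had an unadjusted edgeR p under 0.05, CDK10 and CCNI. None passed in DESeq2 either, which gave CDK18 no adjusted p. CDK10 had a log2 fold change of 0.16 (standard error 0.06) with groups apart, and CCNI, an atypical cyclin, one of -0.12 (standard error 0.05) with groups apart (edgeR adjusted p = 0.186 and 0.204). After the GC correction CDK10 lay at 0.04 (edgeR adjusted p = 0.817) and CCNI at -0.10 (edgeR adjusted p = 0.303), and without p53WT replicate 2 CDK10 lay at 0.10. CCNG2, a cyclin linked to arrest rather than to proliferation, had 10.7 and 9.52 CPM in p53WT and 11.5 and 10.6 CPM in CASM34, at 0.14 (standard error 0.12) with overlapping groups. CDK5, best known for its role in neurons, had 41.7 and 42.3 CPM in p53WT and 42.0 and 43.2 CPM in CASM34, at 0.02 (standard error 0.06). CDK18 had the largest fitted value of all 45, 0.48, but a standard error of 0.23 and at most 3.15 CPM in any library (edgeR adjusted p = 0.316). The other 6 (CCNJ, CCNY, CDK14, CDK16, CDK17 and CDK20) had log2 fold changes between -0.10 and 0.06, at mean levels from 4.61 TPM for CDK14 to 94.9 TPM for CDK16.

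The cell cycle class lay higher in both p53WT libraries than in both CASM34 libraries, and the transcriptional class did not. The median over the 18 genes of the deviation of log2 CPM from each gene's mean stood at 0.04 and 0.05 in the p53WT libraries and at -0.06 and -0.04 in the CASM34 libraries. For the transcriptional class it stood at 0.03 and -0.0035 in p53WT and at 0.0021 and -0.04 in CASM34, so the groups overlapped. Across the 45 genes, which share the same libraries, the log2 fold change had a Spearman correlation with GC content of 0.50, as it had over all genes at 0.47. With the GC and length offset, which takes out the trend on GC by construction, the correlation over the 45 was -0.08. As that trend followed the groups, the offset would also take out a difference between the groups that went with GC content. The median of the cell cycle class with that offset was -0.10, with 16 of 18 genes below 0, where all genes had a median of -0.02 and 56.2% below 0. The transcriptional class then had a median of -0.0065, with 8 of 16 below 0. On the log2(TPM + 1) scale the cell cycle median was -0.04, with 12 of 18 below 0.

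**Figure D4:**
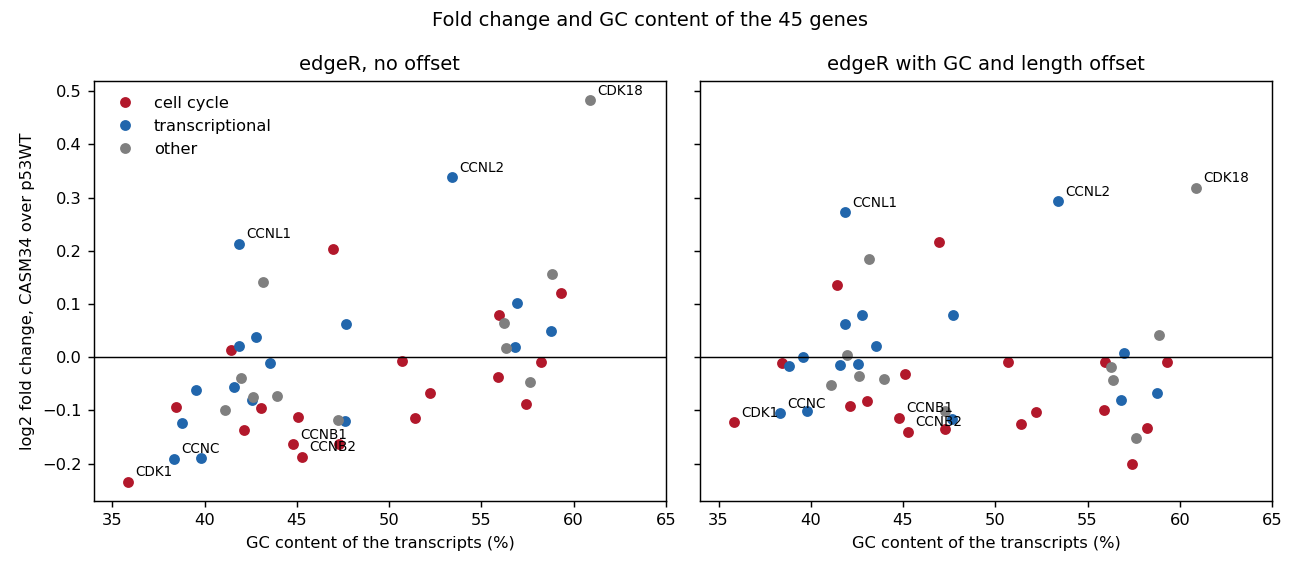
Log2 fold change, CASM34 over p53WT, against the GC content of the transcripts for the 45 genes, colored by class, without (left) and with (right) the GC and length offset. At the left the points rise with GC content (Spearman correlation 0.50). At the right they do not (-0.08), since the offset takes that trend out. CDK1 moves from -0.23 to -0.12, and CCNL2 stays high at 0.29.

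Among 45 further genes that act on these complexes or beside them, 1 rose and 0 fell by edgeR, where 1.95% of all genes changed. An unadjusted edgeR p under 0.05 was found for 7 of them, where 17.1% of all genes had one. Both counts are close to the background of the whole table. DESeq2 also called 1 of these 45 genes. The gene that rose was CDKN1A, which encodes the CDK inhibitor p21, from 390 and 413 CPM in p53WT to 517 and 531 CPM in CASM34, a log2 fold change of 0.38 (standard error 0.05, edgeR adjusted p = 0.00274). It passed once corrected for GC and length too, at 0.27 (edgeR adjusted p = 0.0346). It did not pass with effective length as an offset, at 0.38 (edgeR adjusted p = 0.175), or in limma on log2(TPM + 1), at 0.38 (adjusted p = 0.260). The remaining 7 CDK inhibitors, the inhibitory kinases WEE1 and PKMYT1, the 10 pocket protein and E2F genes, 7 genes for destruction of cyclins and CDK regulators, 8 partners of P-TEFb, 3 of the Mediator kinase module and 7 of TFIIH had none that passed. The median log2 fold change over these 45 further genes was -0.02, with 29 below 0, where 50.2% of all genes lay below 0. With the GC and length offset their median was -0.04, with 29 below 0, where 56.2% of all genes lay below 0. Of the 45 genes described above, 28 lay below 0 without the offset and 31 with it.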

How the data were processed

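Poly(A) RNA of H1299 was sequenced in 2 p53WT and 2 CASM34 libraries. The submitters' processing notes name Trim Galore, STAR, RSEM and GRCh38; versions, annotation release and strandedness are not stated there. Per the file headers, the authors deposited RSEM expected counts, TPM and effective lengths (bases) for 61852 genes. Reads that match several gene models are shared by RSEM, so 8.63% to 9.26% of genes per library had fractional counts (tolerance 0.001).

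Expected counts were rounded, filtered (filterByExpr, minimum count 10; 45887 genes removed), scaled by TMM and compared with the quasi-likelihood test of edgeR 4.0.16 in R 4.3.3, with group as the only term; adjusted p (Benjamini-Hochberg) under 0.05 over all 15965 genes. The standard error of a log2 fold change is its size divided by the square root of F. The coefficient of variation was 0.0440. Counts of the 2 libraries of a group differed beyond sampling noise (chi-square per degree of freedom 3.86 and 3.92), so neither is a copy of the other. The check does not show that the 2 libraries come from separate samples.

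Alternatives were median-of-ratios scaling, scaling to library totals, testing unfiltered genes, a minimum mean CPM of 1, the DESeq2 1.42.0 test, limma 3.58.1 fitted to log2(TPM + 1), effective length as an offset, GC content and length as an offset (splines, 5 degrees of freedom; GENCODE 29 transcripts; 270 tested genes without a GC value left uncorrected), a replicate block, leaving out each library and an adjusted p under 0.01. The edgeR test was tested on simulated data. The members, classes and lists were chosen with earlier results of these data known. All members are named; values in every library are given for those that passed and for a fixed list covering each role. A result that needs a withheld item is not reported here.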

Additional observations from a re-analysis of the deposited data

How the results depend on the processing

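Both calls among the 45 genes kept their direction in all alternatives run. CDK1 passed in 7 of 13 alternative fits and CCNL2 in 10. Over the whole table the number of genes that changed was 777 with no filter on low counts, 0 in limma on log2(TPM + 1) (1820 with an unadjusted p under 0.05), 41 with the GC and length offset, 3 with the effective length offset, 57 at an adjusted p under 0.01, and 109 to 919 when single libraries were left out, where a lone library is assumed to vary like the other group. The number among the 45 was 5 with no filter, 0 in limma on log2(TPM + 1), 1 with the GC and length offset, 0 with the effective length offset, 1 at an adjusted p under 0.01 and 0 to 4 without single libraries. For cell cycle genes it was 3 with no filter, 2 in DESeq2, 0 in limma on log2(TPM + 1), with the GC and length offset, with the effective length offset and at an adjusted p under 0.01, and 0 to 2 without single libraries. For transcriptional genes it was 2 with no filter, 0 in limma on log2(TPM + 1) and with the effective length offset, and 0 to 2 without single libraries. Among the other pathway genes it was 2 with no filter, 2 at a mean CPM of at least 1, 0 in limma on log2(TPM + 1) and 0 with the effective length offset. A replicate block gave 1159 genes in all, 6 of the 45, 3 cell cycle genes (CDK1, CCNB1 and CCNB2), 3 transcriptional genes (CCNL2, CCNL1 and CCNC) and 3 pathway genes; the numbers in the titles were the only pairing, and the deviations of same-numbered libraries had a correlation of 0.03.

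The cell cycle median was -0.041 in limma on log2(TPM + 1), -0.051 with the effective length offset and -0.095 to -0.074 without single libraries. The transcriptional median was -0.055 to -0.0042 without single libraries, below 0 in each case, where all 4 libraries gave 0.0035. The median of the remaining class was -0.016 in limma on log2(TPM + 1), -0.0089 with the effective length offset and -0.030 to 0.024 without single libraries. The cause of these differences was not tested.

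Some genes changed sign without passing, among them CCND3, which stood at 0.12 before the GC and length offset. With the GC and length offset CCND1 lay at -0.0087, CCND3 at -0.0097, CCNT2 at 0.00023, CDK5 at -0.043, CDK9 at -0.067, CDK11B at -0.081, CDK13 at 0.021, CDK17 at 0.0045 and CDK20 at -0.018. With the effective length offset CCNE1 lay at 0.0073, CCNT2 at 0.12, CDK5 at -0.0044, CDK8 at -0.016, CDK19 at -0.059 and CDC25A at 0.020, and in limma on log2(TPM + 1) at 0.0059, 0.11, -0.00023, -0.013, -0.048 and 0.025. Without single libraries the log2 fold change ranged from -0.11 to 0.071 for CCNE1, -0.22 to 0.037 for CCNE2, -0.16 to 0.024 for CCNJ, -0.059 to 0.16 for CCNK, -0.10 to 0.021 for CDK4, -0.0020 to 0.039 for CDK5, -0.0045 to 0.071 for CDK8, -0.14 to 0.14 for CDK11B, -0.051 to 0.022 for CDK13, -0.14 to 0.031 for CDK16, -0.10 to 0.017 for CDK17, -0.040 to 0.079 for CDK19, -0.011 to 0.12 for CDK20, -0.086 to 0.057 for CDC25B and -0.057 to 0.086 for CKS2. Without a change of sign, leaving out single libraries moved the value by over 1.5 times for some genes, with ranges of 0.014 to 0.14 for CCND1, 0.049 to 0.37 for CCND2, 0.13 to 0.29 for CCNL1, -0.10 to -0.023 for CCNT2, 0.059 to 0.22 for CCNG2, -0.15 to -0.039 for CDK6, -0.15 to -0.0014 for CDK7, 0.10 to 0.21 for CDK10, 0.051 to 0.14 for CDK11A, -0.20 to -0.008 for CDK14, 0.32 to 0.65 for CDK18 and -0.16 to -0.066 for CKS1B. With 2 libraries a group, an adjusted p over 0.05 does not show that a gene did not differ.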
